A study of Mus musculus with 21 samples.

Results

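The epidermal differentiation complex is a cluster of genes on mouse chromosome 3 that keratinocytes use in the last steps of their life, when they lose their nuclei and build the cornified envelope under the plasma membrane. The genes described here were those whose array name starts with Sprr or Lce, together with Lor, Flg, Flg2, Ivl, Rptn, Hrnr and Crct1. They made 35 of the 27373 gene names on the array: 2 Sprr1 genes, 9 Sprr2 genes, Sprr3 and Sprr4, 13 Lce1 genes, 2 Lce3 genes, 4 genes for S100-fused proteins (Flg, Flg2, Rptn and Hrnr) and 3 other envelope genes (Lor, Ivl and Crct1). Their probes lay between chr3:91884206 and chr3:93202723 (mm9). No probe carried the name Crnn, and Sprr2i, Sprr2a2, Sprr2a3, Lce1k, Lce3a, Lce3b, Lce3d, Lce3e and Lce6a likewise had no probe named for them alone.

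The study compared male C57Bl6/J mice without JNK1, the stress-activated kinase encoded by Mapk8 (knockout, KO), with wild-type mice (WT). All animals were 45 weeks old and had been given a high-fat diet from 5 to 44 weeks of age, so that the controls carried the diet too. RNA was hybridised to one-colour Agilent arrays, 1 array per sample. Skin had 4 KO and 3 WT arrays, liver 3 of each genotype, and epididymal fat 4 of each. The labels do not say whether the KO was limited to a cell type or which arrays came from the same mouse. If the arrays of a group were not separate animals, the p-values measure a spread that may be technical. Values are log2 of the background-corrected Cy3 signal minus the 75th percentile of the array, so that 0 is the 75th percentile. A probe "well above background" passed the scanner software's own test.

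The share of probes well above background was 38.9% and 39.5% on skin KO 1 and WT 1 and at least 43.5% on the other 18 arrays used. The Mapk8 probe was higher on every WT than on every KO array of liver and of fat. In skin it was at -4.46, -4.17, -5.18 and -5.24 on KO 1 to 4 and at -4.14, -2.42 and -2.16 on WT 1 to 3. It was well above background on WT 2 and WT 3 only, so the array labelled WT 1 could not be told from the KO arrays by Mapk8, and the labels do not say whether the probe lies in the deleted part. Skin arrays are therefore named here as labelled. The scanner file labelled fat WT 2 correlated with its own column of the authors' deposited value table at r = 0.78, against 0.97 or more for the other arrays (across probes, which are not independent replicates). It was left out, and fat WT 2 is given from its table column.

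Small proline-rich (Sprr) proteins and late cornified envelope (Lce) proteins are cross-linked into the envelope by transglutaminases. Loricrin (Lor) is its main component and involucrin (Ivl) its early scaffold. Filaggrin (Flg) and its relatives carry an S100-type end and bundle keratin filaments or strengthen the matrix. Sprr1, Sprr2 and Lce3 genes are known to be induced in wounded or inflamed epidermis, whereas Lor, Flg and the Lce1 genes belong to undisturbed cornification. Several of these genes have binding sites of AP-1, the factor made of Jun and Fos proteins, before their starts, and Jun is the namesake substrate of JNK kinases.

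The upstream letters of 5 members are shown because the subfamilies differ in them. Each stretch ends at the base before the annotated start of transcription (RefSeq, GRCm38.p6, written 5′ to 3′ on the gene's strand), and capitals mark TGANTCA, the AP-1 letters, and TATAAA, the TATA box letters. Sprr2d and Sprr2f stand for the Sprr2 genes.
Sprr2d, chr3:92338930-92339139 (plus strand): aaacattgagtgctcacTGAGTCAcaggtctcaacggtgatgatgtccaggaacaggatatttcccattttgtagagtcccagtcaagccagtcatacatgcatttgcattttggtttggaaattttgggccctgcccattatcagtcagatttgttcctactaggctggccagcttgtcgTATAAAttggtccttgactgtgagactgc
Sprr2f, chr3:92364977-92365186 (plus strand): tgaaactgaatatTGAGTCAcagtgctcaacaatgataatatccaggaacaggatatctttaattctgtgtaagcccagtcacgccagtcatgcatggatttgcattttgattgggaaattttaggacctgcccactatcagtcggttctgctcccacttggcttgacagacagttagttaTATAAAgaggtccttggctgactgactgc
Sprr1b, chr3:92438780-92438909 (minus strand): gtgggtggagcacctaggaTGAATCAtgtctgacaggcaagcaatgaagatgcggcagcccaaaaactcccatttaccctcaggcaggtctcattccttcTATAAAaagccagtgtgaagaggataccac
Rptn, chr3:93393569-93393698 (plus strand): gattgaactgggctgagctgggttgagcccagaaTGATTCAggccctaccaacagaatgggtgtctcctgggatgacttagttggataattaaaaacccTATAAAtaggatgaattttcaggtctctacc
Lce1b, chr3:92656927-92657056 (minus strand): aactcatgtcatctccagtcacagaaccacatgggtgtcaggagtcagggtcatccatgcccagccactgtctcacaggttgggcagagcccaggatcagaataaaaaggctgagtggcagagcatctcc

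Of the 35 members, 31 had a promoter of 250 bases before to 50 bases after the start in the RefSeq table. TGANTCA, which reads the same on both strands, was found in 13 of the 31 (41.9%), against 7.81% of the 32851 promoters in the table. The 13 were Lor, Ivl, both Sprr1 genes, Flg, Flg2, Rptn and 6 of the 7 Sprr2 genes with a promoter (Sprr2b, Sprr2d, Sprr2e, Sprr2f, Sprr2h and Sprr2k). It was in 0 of 12 Lce1 and 0 of 2 Lce3 promoters. In the Sprr2 genes the copy nearest to the start began 182 to 198 bases before it, in Sprr1b 111, in Rptn 96 and in Lor 48 bases before it. TATAAA, read on the gene's strand only, was in 16 of 31 promoters (51.6%), against 8.32% of all promoters, and in the same 6 Sprr2 genes it began 29 bases before the start. The 2 sets of letters cannot overlap each other. A match describes letters, not a bound site, and the neighbouring Sprr2 promoters are related in sequence.

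In skin, 0 members passed the test, and the largest subfamily medians of the KO minus WT difference were those of the Sprr1, Sprr2 and Lce3 genes. For most of these genes KO 1, KO 2 and KO 3 lay above the WT arrays and KO 4 lay among them. The median KO minus WT difference was 1.94 over the 2 Sprr1 genes, 2.20 over the 9 Sprr2 genes and 2.36 over the 2 Lce3 genes. It was -0.38 over the 13 Lce1 genes, 0.88 over the 4 S100-fused genes and -0.01 over Lor, Ivl and Crct1. Of all 35 members, 21 had a positive difference, where 39.4% of the genes tested did. The median over all 35 members was 0.85 and over the 13496 genes tested in skin -0.10. Of the 35 members, 34 were well above background on at least 3 skin arrays and were tested; Sprr3 was not. None passed an adjusted p of 0.05 with limma (Benjamini-Hochberg over all genes tested), where 2 genes did (0.0148%). Sprr2f passed this filter through its KO arrays alone, which fixes its direction, and is left out of the next counts. Of the other 33, 5 were higher in KO and 0 lower at an unadjusted p under 0.05, where 2.85% and 5.02% of all genes tested were. These 5 were Sprr2d, Sprr4, Sprr2h, Sprr1b and Lce3f. A median over members is a description, since neighbours share sequence and were measured on the same 7 arrays.

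The size of these medians depended on KO 1. Without it the median difference was 1.38 for Sprr1, 1.10 for Sprr2, 1.34 for Lce3, 0.32 for the S100-fused genes and 0.15 for all members. Without KO 4 the Sprr2 median was 2.92, and without the array labelled WT 1 it was 2.49. In none of these settings was a member called. KO 1 and KO 4 shared a slide and gave the highest and the lowest KO value of 8 of the 9 Sprr2 genes, while KO 2 and KO 3 shared another slide and lay next to each other (Sprr2 medians 1.96 and 1.38 above the WT mean). The part of the slide in this order was not tested. No slide held skin arrays of both genotypes, so slide and genotype cannot be told apart in any skin KO minus WT difference. The same holds for liver.

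**Figure D1:**
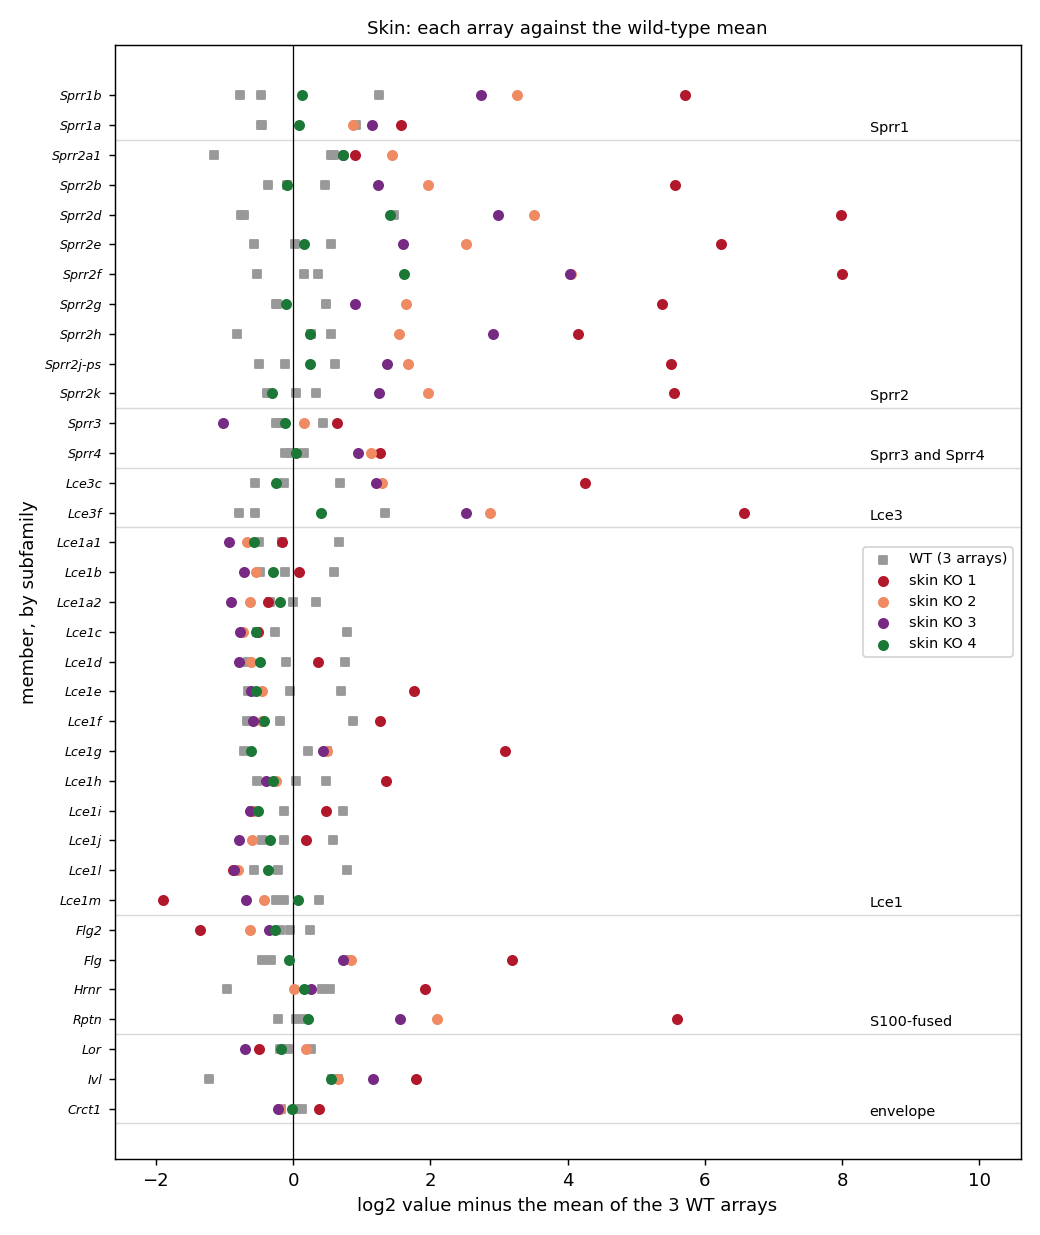
Each point is 1 skin array (circles, KO 1 to 4; grey squares, WT 1 to 3), drawn as its log2 value minus the mean of the 3 WT arrays, for the 35 members in rows grouped by subfamily. The Sprr1, Sprr2 and Lce3 rows spread to the right, up to 8.01 for Sprr2f on KO 1, while most points of the 13 Lce1 rows stay near 0.

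The Sprr2 genes encode small envelope cross-bridging proteins and lay next to each other. All 9 were above every WT array on KO 1, on KO 2 and on KO 3. On KO 4, 2 of 9 were above every WT array and the median Sprr2 gene lay 0.24 from the WT mean, compared with 5.55, 1.96 and 1.38 on KO 1, KO 2 and KO 3. KO 4 was the lowest KO array for all 9 genes. How many of all genes were above every WT array on a single KO array was not counted, so the counts by array have no yardstick.

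Sprr2f was at 3.52, -0.44, -0.45 and -2.87 on KO 1 to 4 and at -4.33, -5.01 and -4.13 on WT 1 to 3. All 4 KO arrays were above all 3 WT arrays, and the probe was well above background on 3 KO and 0 WT arrays. The means were -0.06 ± 2.65 (SD, n = 4) for KO, against -4.49 ± 0.46 (SD, n = 3) for WT, a difference of 4.43 ± 1.23 (SE; limma, adjusted p = 0.488). The WT arrays give only an upper level, taken for each as the higher of its dimmest signal well above background and the probe's own signal. The KO mean lay 7.44-fold above that level. KO 4 was not well above background either and enters the KO mean as read, so 7.44 is not a strict lower bound. Over 17 other settings the difference ran from 2.05, with normexp background correction, to 5.36, and the adjusted p from 0.0162, in 1 fit over all tissues, to 0.888. Sprr2f was called in that 1 setting only; without KO 1 it was above background on too few arrays for a test and its difference was 3.23.

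Sprr2d was at 7.23, 2.76, 2.23 and 0.66 on KO 1 to 4 and at 0.71, -1.46 and -1.51 on WT 1 to 3. The values of KO 4 and WT 1 nearly coincided, so the groups overlapped by a margin far smaller than the spread among the KO arrays. The difference was 3.97 ± 1.38 (SE; limma, adjusted p = 0.555), and 2.64 without KO 1. Sprr2h was at 3.64, 1.02, 2.39 and -0.27 on KO 1 to 4 and at 0.03, -0.26 and -1.34 on WT 1 to 3. Here KO 3 and not KO 2 came second, and KO 4 lay within the WT range. Its difference was 2.22 ± 0.83 (SE; limma, adjusted p = 0.555).

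Sprr2a1 had the smallest difference of its subfamily. It was at 5.01, 5.55, 4.84 and 4.84 on KO 1 to 4 and at 2.96, 4.66 and 4.71 on WT 1 to 3. The groups did not overlap, but KO 4 exceeded WT 3 by little, and most of the gap came from the low value of WT 1. The difference was 0.95 ± 0.43 (SE; limma, adjusted p = 0.555). A second Sprr2a1 probe, which was not used because its signal was lower, differed by 2.28, so the 2 probes gave different sizes in the same direction. The other 5 Sprr2 genes, Sprr2b, Sprr2e, Sprr2g, Sprr2k and the pseudogene Sprr2j-ps, differed by 1.96 to 2.62, and in each of them KO 4 lay within the WT range.

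Every KO array was above every WT array for 2 of the 33 members measured in both groups (Sprr2a1 and Rptn), compared with 3.35% of all genes tested. Every KO array was below every WT array for 1 member, Flg2, compared with 8.16%.

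Sprr1b, an envelope precursor typical of stressed squamous cells, was at 4.70, 2.26, 1.74 and -0.88 on KO 1 to 4 and at 0.24, -1.48 and -1.78 on WT 1 to 3. KO 1 to 3 were well above the highest WT array, and KO 4 lay among the WT arrays. The difference was 2.96 ± 1.13 (SE; limma, adjusted p = 0.555), and 2.05 without KO 1. Its neighbour Sprr1a was at 7.09, 6.40, 6.67 and 5.62 on KO 1 to 4 and at 6.45, 5.05 and 5.07 on WT 1 to 3. WT 1 lay between the KO arrays, and the difference of 0.92 ± 0.44 (SE; limma, adjusted p = 0.555) did not exceed the spread among arrays.

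Sprr4 was at 4.52, 4.38, 4.20 and 3.29 on KO 1 to 4 and at 3.41, 3.13 and 3.22 on WT 1 to 3. KO 1 to 3 stood together above all WT arrays and KO 4 lay within the WT range, a difference of 0.85 ± 0.31 (SE; limma, adjusted p = 0.555). Sprr3, which is typical of oral and oesophageal epithelium, was at -4.05, -4.53, -5.70 and -4.81 on KO 1 to 4 and at -4.25, -4.88 and -4.94 on WT 1 to 3. It was well above background on 0 of 7 skin arrays, so these values carry no order.

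Lce3f, of a subfamily linked to barrier repair, was at 5.26, 1.55, 1.20 and -0.91 on KO 1 to 4 and at 0.01, -2.11 and -1.87 on WT 1 to 3. KO 1 to 3 were above every WT array, KO 4 was not, and the difference was 3.09 ± 1.26 (SE; limma, adjusted p = 0.555). Lce3c was at 5.57, 2.60, 2.52 and 1.05 on KO 1 to 4 and at 1.999, 0.75 and 1.18 on WT 1 to 3. Its KO arrays stood in the same order as those of Lce3f, and KO 4 lay among the WT arrays, with a difference of 1.63 ± 0.91 (SE; limma, adjusted p = 0.555), and its unused second probe differed by 1.81. The Lce3c probe also lists an accession of Lce3b, and the 2 genes cannot be told apart on it.

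The 13 Lce1 genes, which encode envelope proteins laid down late in undisturbed epidermis, differed less between the genotypes. All 13 were well above background on all 7 skin arrays. Of them, 10 had a negative and 3 a positive difference, from -0.73 for Lce1m to 0.85 for Lce1g, and 0 had groups that did not overlap. The array labelled WT 1 was the highest WT array for all 13, and KO 1 was the highest KO array for 10. On KO 2, KO 3 and KO 4, 7, 9 and 2 of the 13 genes were below every WT array. The share of all genes below every WT array on a single KO array was not counted, so these counts have no yardstick. The Lce1 median of -0.38 became -0.57 without KO 1 and -0.06 without the array labelled WT 1, so it rested on these arrays.

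Lce1m was at 6.61, 8.08, 7.82 and 8.57 on KO 1 to 4 and at 8.88, 8.26 and 8.37 on WT 1 to 3. It was lowest on KO 1, the array on which Sprr2 genes were highest, and the difference was -0.73 ± 0.43 (SE; limma, adjusted p = 0.555). Lce1g was at 3.07, 0.48, 0.42 and -0.63 on KO 1 to 4 and at 0.47, -0.73 and 0.20 on WT 1 to 3. Its positive difference, 0.85 ± 0.77 (SE; limma, adjusted p = 0.617), came from KO 1 alone, since KO 2 to 4 lay close to or within the WT range. Lce1e, Lce1f and Lce1h were also higher on KO 1 than on any other skin array, while their KO minus WT differences lay between -0.05 and 0.11. The other 8 Lce1 genes differed by -0.73 to -0.31, with adjusted p of 0.555 to 0.711 (limma).

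Rptn (repetin) was at 3.94, 0.45, -0.09 and -1.44 on KO 1 to 4 and at -1.88, -1.47 and -1.61 on WT 1 to 3. All KO arrays were above all WT arrays, though KO 4 exceeded WT 2 only by a small margin, and the difference was 2.37 ± 1.06 (SE; limma, adjusted p = 0.555). Without KO 1 it was 1.29. Flg2 (filaggrin 2) was at 2.92, 3.64, 3.92 and 4.01 on KO 1 to 4 and at 4.51, 4.22 and 4.07 on WT 1 to 3. All KO arrays were below all WT arrays, KO 1 most of all and KO 4 by little, with a difference of -0.65 ± 0.29 (SE; limma, adjusted p = 0.555). Flg differed by 1.17 and Hrnr (hornerin) by 0.59, both with KO 1 highest and KO 4 within the WT range; without KO 1 the Flg difference was 0.50. On KO 1, Flg2 and Lce1m were thus at their lowest while Flg, Hrnr and Rptn were at their highest.

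Loricrin and Crct1 hardly differed between genotypes. Lor was at 9.36, 10.04, 9.16 and 9.68 on KO 1 to 4 and at 10.12, 9.66 and 9.78 on WT 1 to 3. KO 2 and KO 4 lay within the WT range and KO 1 and KO 3 below it, and the difference was -0.29 ± 0.26 (SE; limma, adjusted p = 0.608). Crct1 ranged from 8.34 to 8.94 over the 7 arrays and differed by -0.01 ± 0.22 (SE; limma, adjusted p = 0.984). Ivl was at 2.69, 1.54, 2.06 and 1.45 on KO 1 to 4 and at -0.33, 1.46 and 1.55 on WT 1 to 3. WT 1 was low and the other 2 WT arrays lay among the KO arrays, so the difference of 1.04 ± 0.50 (SE; limma, adjusted p = 0.555) rested largely on WT 1. The sign of the median over Lor, Ivl and Crct1 differed in 6 of 17 other settings.

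Other genes of the epidermis were read on the same arrays from fixed lists. Of 10 genes of wounded or stressed epidermis (Krt6a, Krt6b, Krt16, Krt17, S100a8, S100a9, Stfa1, Stfa3, Il1f6 and Il1b), 10 had a positive difference, with a median of 3.07, and 0 were called. The mean of the list was 7.23, 4.48, 3.68 and 2.09 on KO 1 to 4 and 1.91, 1.41 and 1.52 on WT 1 to 3, the order in which the Sprr2 median stood on the KO arrays. Krt16, a keratin of activated keratinocytes, was at 8.92, 6.62, 5.53 and 3.85 on KO 1 to 4 and at 4.23, 2.48 and 2.54 on WT 1 to 3. S100a9, an alarmin of neutrophils and stressed keratinocytes that also lies in the complex, was at 9.92, 5.81, 5.51 and 3.94 on KO 1 to 4 and at 2.59, 2.02 and 1.90 on WT 1 to 3. Stfa1 differed by 3.46 and Il1b by 3.06. Il1b was at 1.20, 0.01, -1.75 and -2.77 on KO 1 to 4 and at -4.45 to -3.58 on WT arrays. It was well above background on 3 of 7 skin arrays only, so the filter may have fixed its direction. For 5 of the 10 stress genes, Il1b among them, every KO array was above every WT array (3.35% of all genes tested). Il1b also enters the positive count and the median of the list. The neutrophil list, which shares S100a8 and S100a9 with the stress list, had means of 4.21, 2.05, 1.47 and 0.24 on KO 1 to 4 and -0.26 to 0.06 on WT arrays. In its genes Retnlg and Mmp9 the differences were 0.96 and 0.38, and Retnlg was well above background on 3 of 7 skin arrays.

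Hair follicle genes lay apart by genotype on every array. For 12 of 12 genes on the array every KO array was above every WT array, with a median difference of 4.11 and 0 called; Krt71, Krt85, Krt25 and Krt31 had the smallest p, each with adjusted p = 0.144 (limma). The mean of this list was 7.48, 6.002, 7.35 and 5.20 on KO 1 to 4 and 1.55, 3.90 and 1.94 on WT 1 to 3, so KO 4 stood clearly above the WT arrays here, as it did not for most Sprr2 genes. Markers of basal and living suprabasal epidermis differed by medians of -0.19 (7 genes) and -0.12 (8 genes), with list means of 5.34 to 5.63 and 5.16 to 5.49 on KO arrays and 5.44 to 6.30 and 5.45 to 5.90 on WT arrays. Of the 8 suprabasal genes, 3 had a positive and 5 a negative difference. The smallest p was that of Krt2, which differed by -2.43 ± 0.97 (SE; limma, adjusted p = 0.555). Krt2 was at -4.13, 0.25, -1.35 and -0.24 on KO 1 to 4 and at 1.98, 0.16 and 1.04 on WT 1 to 3. Among the basal genes Col17a1 had the smallest p and differed by -0.88. The skeletal muscle list was at 6.83 on KO 1 and at 7.65 to 8.77 on the other skin arrays. Skin RNA is a mixture, so fewer cells of a type and less RNA per cell cannot be told apart, and the part of stress, hair cycle, immune or muscle RNA in the values of the members was not tested.

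**Figure D2:**
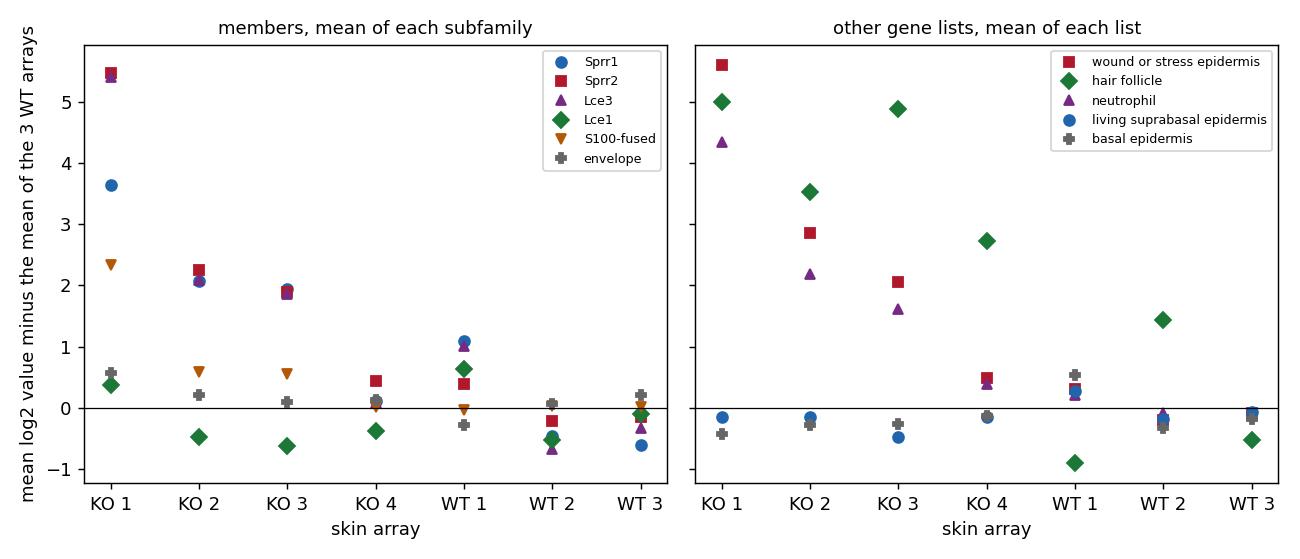
Left, the mean log2 value of each subfamily on each skin array, minus the mean of the 3 WT arrays; right, the same for 5 other gene lists. Sprr2, Lce3, stress and neutrophil means are highest on KO 1 and the lowest of the KO arrays on KO 4. On KO 4 the Sprr2, stress and neutrophil means are a little above every WT array, and the Lce3 mean lies among the WT arrays. The hair follicle mean is above every WT array on all 4 KO arrays.

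Of the remaining genes of cornification, 0 were called in skin. Of 20 genes of cross-linking and envelope assembly tested, 10 differed upwards and 10 downwards, with a median of 0.04; Tgm3, a transglutaminase of follicle and upper epidermis, differed by 2.07 ± 0.76 (SE; limma, adjusted p = 0.555) and Csta, a protease inhibitor of the envelope, by 1.41. Csta was at 9.43, 7.17, 6.54 and 6.03 on KO 1 to 4 and at 5.78, 5.89 and 5.97 on WT 1 to 3. Of 17 proteases and inhibitors, 13 had a positive difference, with a median of 0.34; Spink5, the inhibitor of kallikreins, differed by 0.92. Of 13 other residents of the complex, 6 had a positive difference and the median was -0.08. For 4 of the 13 every KO array was above every WT array, compared with 3.35% of all genes tested. Among these 4, Tchh, which the hair follicle list also holds, and S100a3, both known from the hair follicle, differed by 3.96 and 3.70 (adjusted p = 0.144 each, limma). The others, S100a9 and S100a8, which the stress list also holds, differed by 4.13 and 3.08 (adjusted p = 0.519 and 0.555, limma). Of 23 regulators of late differentiation, AP-1 genes included, 9 had a positive and 14 a negative difference, with a median of -0.05; the smallest p values were those of Keap1 (-0.55), Notch3 (-0.85), Fosl2 (0.54) and Cebpa (-0.48).

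Outside skin the members differed widely in how often they were measured. In liver 5 members were well above background on all 6 arrays, 17 more on at least 3, 3 on 1 or 2 and 10 on none. In fat, 3 were well above background on all 7 arrays used, 2 more on at least 3, 5 on 1 or 2 and 25 on none. Counted by array, the number of members well above background was 21, 25 and 9 on liver KO 1 to 3 and 10, 7 and 25 on liver WT 1 to 3. In fat it was 3 to 8 on each array, compared with 33 or 34 in skin.

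**Figure D3:**
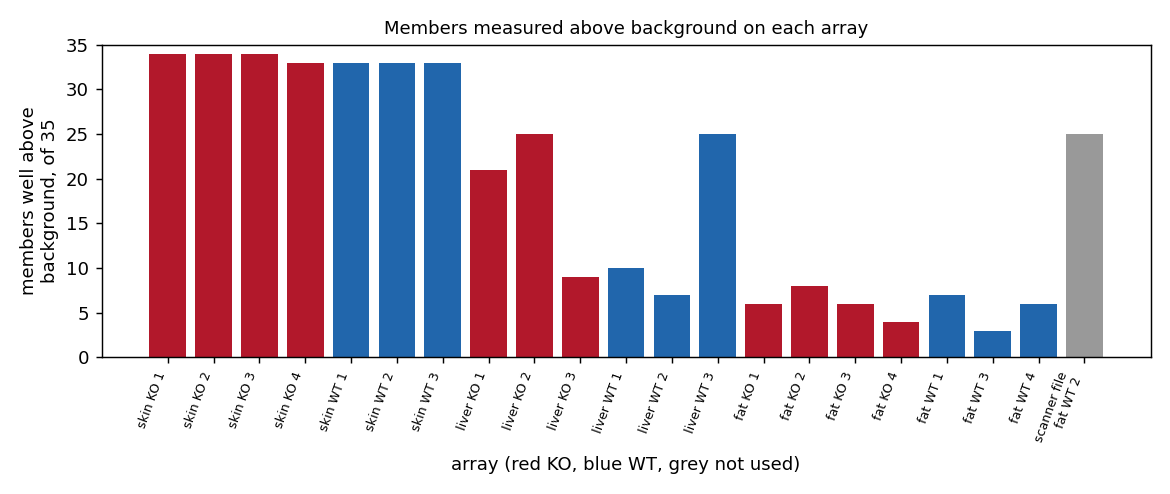
Bars give the number of the 35 members whose probe was well above background on each array of skin, liver and fat, with the unused scanner file labelled fat WT 2 in grey. Liver KO 1, KO 2 and WT 3 reach 21 to 25, while the other liver arrays reach 7 to 10 and the fat arrays used 3 to 8.

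Of the 6 Sprr2 probes well above background in liver or fat, 4 are shown because they share sequence; those of Sprr2a1 and Sprr2g shared at most 8 bases with any other. Capitals mark AAGTGCCCTGA, the longest run of letters common to these 4 probes, which is in no other member's probe; coordinates are mm9, as in the scanner files, and the letters are written 5′ to 3′ as in those files.
Sprr2b, chr3:92121449-92121508 (plus strand): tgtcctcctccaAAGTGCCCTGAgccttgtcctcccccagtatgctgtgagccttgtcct
Sprr2e, chr3:92156847-92156906 (plus strand): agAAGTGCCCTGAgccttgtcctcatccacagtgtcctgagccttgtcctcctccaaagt
Sprr2j-ps, chr3:92222836-92222895 (plus strand): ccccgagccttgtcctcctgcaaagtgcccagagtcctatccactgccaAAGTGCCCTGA
Sprr2k, chr3:92237308-92237367 (plus strand): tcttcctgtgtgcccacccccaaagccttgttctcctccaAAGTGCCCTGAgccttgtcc

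The Sprr2b and Sprr2k probes shared a run of 28 bases, Sprr2e shared 22 with Sprr2b, and Sprr2j-ps shared 15 with Sprr2e. Such probes may measure each other's RNA, and signals of these 4 genes are uncertain as to their source; the Sprr2e probe also lists an accession of Sprr2i and the Sprr2a1 probe one of Sprr2a2. Probes were compared only with each other, and how far each matches the RNA of other Sprr2 genes was not tested. The probes of Sprr2d, Sprr2f and Sprr2h shared at most 10 bases with any other Sprr2 probe. These 3 were well above background on 0 of 6 liver and 0 of 7 fat arrays, whereas Sprr2b and Sprr2e were so on every array of both tissues. In skin the differences of Sprr2d, Sprr2f and Sprr2h were 3.97, 4.43 and 2.22, and those of the 4 probes that share letters 2.12 to 2.62.

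Sprr2b was at -0.81, -0.78 and -0.48 on KO 1 to 3 and at -0.89, -0.80 and -0.34 on WT 1 to 3 in liver and at -1.503, -1.999, -1.44 and -1.69 on KO 1 to 4 and at -1.66, -1.48 and -1.65 on WT 1, 3 and 4 in fat. The arrays of each tissue lay close together, without the order seen in skin. Sprr2a1, whose probe shared at most 7 bases with the others, was at 4.28, 3.64 and 4.45 on KO 1 to 3 and at 4.08, 4.20 and 4.29 on WT 1 to 3 in liver and at 4.36, 3.49, 3.28 and 3.20 on KO 1 to 4 and at 3.59, 3.86 and 3.62 on WT 1, 3 and 4 in fat. It was well above background on all 13 arrays of these tissues. Its liver and fat values came near those of its own probe in skin. In skin the second Sprr2a1 probe had lower means, 1.97 for KO and -0.31 for WT, against 5.06 and 4.11 for the probe used. Liver and fat values of the 2 probes were not compared, so the level of Sprr2a1 RNA in these tissues is uncertain.

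Sprr2e was at -2.32, -1.77 and -1.41 on KO 1 to 3 and at -1.84, -1.47 and -1.41 on WT 1 to 3 in liver, and Sprr2k was at -2.17, -1.93 and -1.58 on KO 1 to 3 and at -1.501, -2.498 and -1.91 on WT 1 to 3. Sprr2j-ps was at -3.29, -1.55 and -2.05 on KO 1 to 3 and at -1.90, -1.65 and -2.09 on WT 1 to 3, with KO 1 not well above background. Genotypes overlapped for all 3. In fat, Sprr2e was at -2.69, -2.45, -2.84 and -3.05 on KO 1 to 4 and at -2.57, -2.77 and -2.51 on WT 1, 3 and 4. Sprr2k was at -2.22, -3.61, -3.02 and -3.66 on KO 1 to 4 and at -2.81, -2.94 and -2.55 on WT 1, 3 and 4 and Sprr2j-ps at -3.16, -3.17, -2.996 and -2.91 on KO 1 to 4 and at -2.91, -3.34 and -3.12 on WT 1, 3 and 4. The fat groups overlapped for all of these, and the largest of the 5 fat differences tested was -0.36 ± 0.35 (SE; limma, adjusted p = 0.815) for Sprr2k. Sprr2g was at -2.32, -1.60 and -1.86 on KO 1 to 3 and at -2.54, -3.35 and -2.13 on WT 1 to 3 in liver, with a difference of 0.75 ± 0.34 (SE; limma, adjusted p = 0.852).

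**Figure D4:**
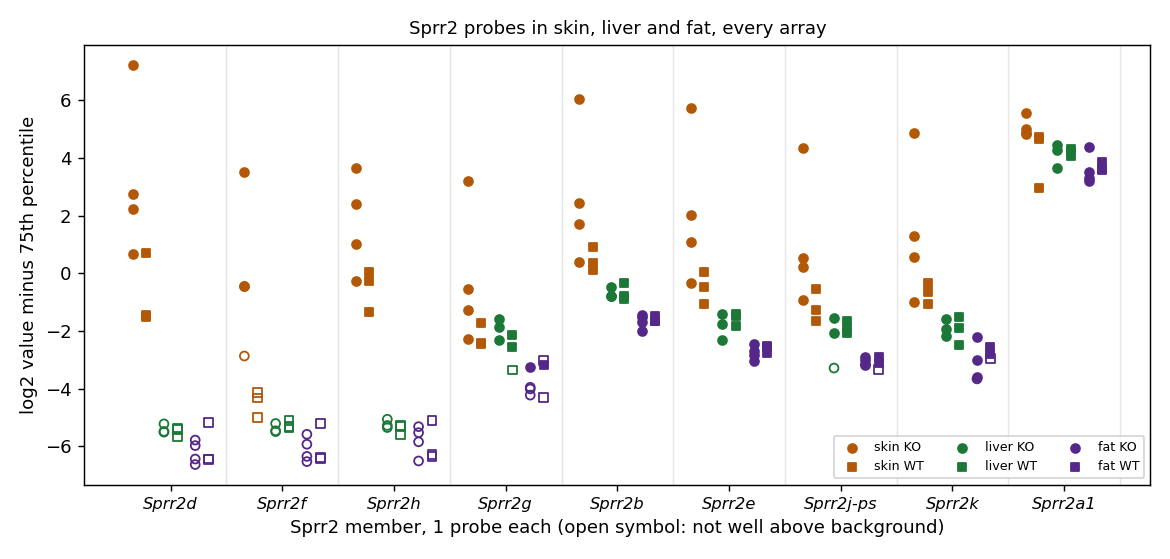
Each symbol is the log2 value (minus the array's 75th percentile) of 1 Sprr2 probe on 1 array, with KO as circles, WT as squares and open symbols where the probe was not well above background. Sprr2d, Sprr2f and Sprr2h have only open symbols in liver and fat, whereas the letter-sharing probes and Sprr2a1 have filled ones.

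No member was called in liver or fat by limma. In liver 22 members were tested, among 13300 genes of which 3 were called (0.0226%), and 1 member had an unadjusted p under 0.05, with KO higher (2.41% of all genes); 0 were lower (3.65%). In fat 5 members were tested, among 15245 genes of which 2 were called (0.0131%), and 0 had an unadjusted p under 0.05 (4.81% of all genes in the higher and 3.12% in the lower direction). The median difference was 0.52 over the 35 members in liver and -0.06 in fat, where all genes tested had medians of -0.0048 and 0.08; members not tested, which were at or near background on most arrays, enter those medians. A positive difference was found for 26 of the 35 members in liver, where 49% of all genes tested had one, and for 15 of 35 in fat, where 62.3% had one.

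In liver the differences between arrays of 1 genotype exceeded those between genotypes. Lor was at 3.29, 5.34 and 0.61 on KO 1 to 3 and at -0.43, -0.27 and 4.79 on WT 1 to 3. KO 1, KO 2 and WT 3 were far above the other arrays, and the difference of 1.72 ± 1.67 (SE; limma, adjusted p = 0.999993) did not exceed this spread. Crct1 was at 0.09, 3.17 and -4.15 on KO 1 to 3 and at -5.45, -5.42 and 2.89 on WT 1 to 3, and only the same arrays were well above background. Lce3f was at -0.05, 3.20 and -4.12 on KO 1 to 3 and at -5.29, -5.25 and 2.43 on WT 1 to 3, and Lce3c at -1.05, 2.64 and -3.07 on KO 1 to 3 and at -4.29, -3.97 and 2.61 on WT 1 to 3. In each of these genes KO 2 and WT 3 were the highest and KO 1 the third.

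Sprr3, not detected in skin, was at -1.56, 1.18 and -5.22 on KO 1 to 3 and at -5.27, -5.22 and 1.05 on WT 1 to 3. It was well above background on KO 1, KO 2 and WT 3 and on no other of the 20 arrays. Sprr1a had another pattern, at -0.58, 0.34 and -2.94 on KO 1 to 3 and at -0.35, -0.59 and -0.25 on WT 1 to 3, and was well above background on every liver array but KO 3. Rptn and Hrnr were so on KO 2 and WT 3 only, where Rptn was at -2.15 and -2.11 and Hrnr at -2.51 and -2.08.

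Of the Lce1 genes, 10, 11 and 2 were well above background on liver KO 1 to 3 and 2, 0 and 11 on WT 1 to 3. Lce1d was at -0.71, 1.06 and -5.55 on KO 1 to 3 and at -5.56, -5.63 and 0.55 on WT 1 to 3. Lce1b was at -0.93, 0.91 and -2.63 on KO 1 to 3 and at -2.92, -3.73 and 0.61 on WT 1 to 3. Both again had KO 2 and WT 3 highest. Lce1a1 was at -1.38, 0.63 and -5.57 on KO 1 to 3 and at -5.43, -5.45 and 0.01 on WT 1 to 3, Lce1c at -1.65, 0.16 and -4.81 on KO 1 to 3 and at -5.36, -4.72 and -0.32 on WT 1 to 3. Lce1f was at -1.66, -0.47 and -5.74 on KO 1 to 3 and at -5.54, -5.62 and -1.31 on WT 1 to 3, and Lce1i at -1.57, -0.82 and -4.53 on KO 1 to 3 and at -5.42, -5.44 and -1.27 on WT 1 to 3. The values near -5.5 were at background. Lce1e was at -2.46, -1.53 and -5.79 on KO 1 to 3 and at -5.57, -5.64 and -1.62 on WT 1 to 3. Lce1a2 was at -2.77, -1.02 and -4.26 on KO 1 to 3 and at -5.23, -5.21 and -1.46 on WT 1 to 3, and Lce1j at -2.32, -0.20 and -3.54 on KO 1 to 3 and at -5.29, -4.59 and -0.85 on WT 1 to 3. For these 9 genes the KO minus WT differences were 1.01 to 1.81 with standard errors of 1.19 to 2.16 and adjusted p of 0.999993 (limma).

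Lce1l did not follow the other Lce1 genes. It was at -2.41, -2.501 and -1.90 on KO 1 to 3 and at -2.58, -4.07 and -3.19 on WT 1 to 3 in liver. All KO arrays were above all WT arrays, by a difference of 1.01 ± 0.38 (SE; limma, adjusted p = 0.79), the only member of 22 to do so, compared with 4.8% of all genes tested, and 0 members had every KO array below every WT array (6.22%). In fat it was at -4.48, -4.25, -3.96 and -3.96 on KO 1 to 4 and at -4.79, -5.41 and -5.24 on WT 1, 3 and 4, again with all KO above all WT arrays, but well above background on 2 KO and 0 WT arrays only, so it was not tested there. None of the 5 members tested in fat had groups that did not overlap (6.63% of all genes had KO above and 2.9% KO below). In skin it was at 1.68, 1.76, 1.69 and 2.19 on KO 1 to 4 and at 3.34, 1.99 and 2.34 on WT 1 to 3, with the KO arrays mostly lower. The deposited table's fat columns gave a smaller difference, 0.49, for Lce1l, and the genotypes overlapped in them. It was at 4.60, 4.89, 5.16 and 5.35 on KO 1 to 4 and at 4.63, 4.92, 4.01 and 4.49 on WT 1 to 4 there.

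The 10 members well above background on no liver array included Ivl, Flg, Flg2, Sprr4 and Sprr1b. Krt13 and Krt4, keratins of internal stratified epithelium, were highest on the arrays that held the other members. Krt13 was at -1.20, 2.01 and -3.45 on KO 1 to 3 and at -5.37, -5.16 and 0.89 on WT 1 to 3. Krt4 was at -0.79, -0.38 and -3.98 on KO 1 to 3 and at -5.29, -5.25 and 1.36 on WT 1 to 3. Each was well above background on 3 liver arrays. Krtdap, a keratinocyte differentiation gene, was at 0.66, 2.80 and -2.86 on KO 1 to 3 and at -5.36, -5.31 and 2.63 on WT 1 to 3 and was well above background on 4. Krt76 of the internal list was so on 0 arrays and Krt84 on 1. Of 8 genes of living suprabasal epidermis, 4 were well above background on no liver array (Krt1, Krt2, Dsg1a and Dsc1), and of 7 of basal epidermis 2 were not (Col17a1 and Trp63). Some others were highest on KO 2 and WT 3. Krt5, a basal keratin, was at -1.80, 1.37 and -2.94 on KO 1 to 3 and at -4.27, -4.13 and 0.98 on WT 1 to 3, and was well above background on 4 arrays. Its partner Krt14 was at -5.64, -2.38 and -5.66 on KO 1 to 3 and at -5.51, -5.51 and -2.51 on WT 1 to 3, and was so on 2. Krt15, Dmkn, Asprv1 and Kprp were well above background on 3 liver arrays each. Krt10 stood at 0.09 to 0.42 on all 6 and did not separate them. The mean of the skeletal muscle list was 0.17, -1.39 and -4.34 on KO 1 to 3 and -1.74, -4.48 and 0.14 on WT 1 to 3. RNA of another tissue in the liver samples was not tested as a source.

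**Figure D5:**
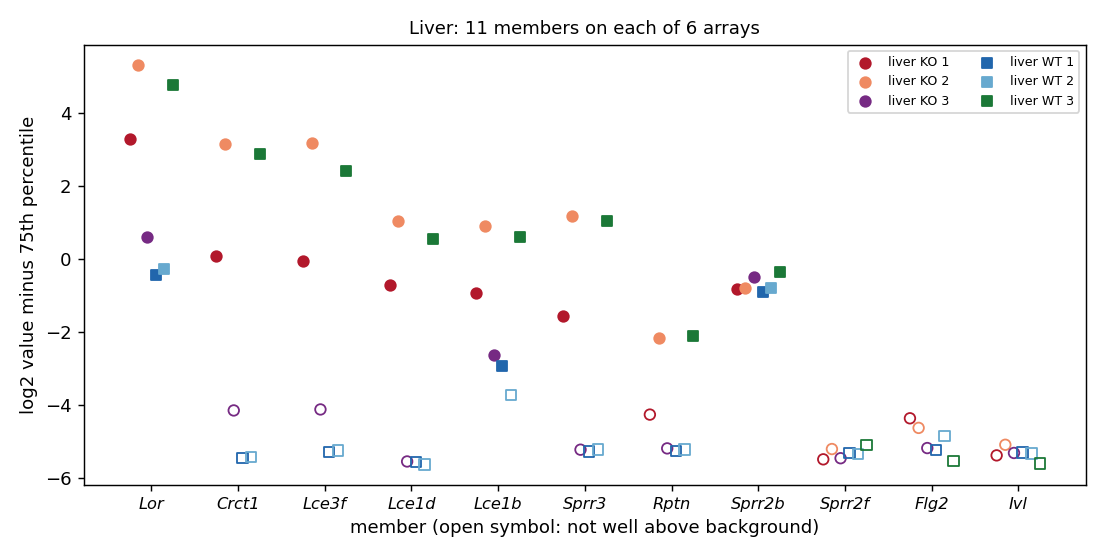
Log2 values (minus the array's 75th percentile) of 11 members on each of the 6 liver arrays; filled symbols were well above background. From Lor to Sprr3, KO 1, KO 2 and WT 3 lie above the other 3 arrays, Sprr2b is even over all 6, and Sprr2f, Flg2 and Ivl are at background on all.

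In fat nearly all members stayed at background. Lor ranged from -5.00 to -3.48 and was well above background on 1 KO and 1 WT array, Sprr2g likewise, and Lce1b and Lce1j on 1 array each. In the deposited table, whose values behave as log2 against the scanner values but whose centring is not stated, the fat WT 2 column gave Lor at 4.22, the lowest of the 8 fat columns (median of the other 7, 4.76), and Crct1 at 3.58 (3.51). Sprr2a1 was at 12.2 in that column and in the median of the others, and Sprr2b at 6.99 (6.90). By its table column fat WT 2 was thus like the other fat samples for these members.

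The KO effect was compared between tissues in 1 limma fit over the 20 arrays. Of the 35 members in the contrast of skin with liver, 0 passed an adjusted p of 0.05 (30 of all genes did, 0.202%). At an unadjusted p under 0.05 the effect was higher in skin for 6 members (3.61% of all genes) and lower for 2, Lce1l and Flg2 (4.45%). Of 34 in the contrast with fat, 0 passed (68 of all genes, 0.423%). At an unadjusted p under 0.05 the effect was higher in skin for 5 members (3.94%) and lower for 1, Lce1l (7.99%). Sprr2f is among those higher in skin in both contrasts, having passed the filter through skin KO arrays alone. So are Sprr2d, Sprr2h and Sprr1b, which like Sprr2f were well above background on 0 liver and 0 fat arrays. Flg2 was so on 0 liver arrays, and Lce1l in fat on 2 KO and 0 WT arrays. For these genes the contrast sets a skin difference against values at or near background. The smallest adjusted p values were those of Lce1l, 0.238 against liver and 0.161 against fat, with effects lower in skin by 1.73 and 1.71, and of Sprr2f, 0.261 and 0.176, with effects higher in skin by 4.56 and 4.51. A larger KO effect in skin than in liver or fat was therefore not established for any member at this number of arrays.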

How the data were processed

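One-colour arrays were scanned and read with Agilent Feature Extraction 10.7.3.1, per the file headers. The deposited scanner files give background-corrected signal intensity per spot; the authors' deposited value table gives log2 values (column medians 5.76 to 6.0045), and the submitters' processing notes name limma, without a version. The centring of that table is not stated. From the scanner files, control and outlier-flagged spots were left out (0 spots were saturated), spots of a probe were averaged, and log2 intensity minus the array's 75th percentile was used. A gene name was represented by its probe with the highest mean. Within each tissue, genes whose probe passed the background test on 3 or more arrays were tested with limma 3.58.1 in R 4.3.3 (two-sided, Benjamini-Hochberg, threshold 0.05); figures and sequences were handled in Python. The method was tested on simulated skin data in which no gene had more than the median spread of the genes tested. Members such as Sprr2f varied more among the KO arrays (SD 2.65), so that test does not cover them. The number of arrays, not a read depth, limits precision. Alternatives were normexp (offset 50), quantile normalization, other filters, all probes averaged, 1 fit over all tissues, slide or replicate number as a block, the value table, and arrays left out.

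The members and lists were chosen with earlier results of these data known. A member was given on every array when it was called, when its skin groups did not overlap, when it was the highest or lowest of its subfamily, or when its probe passed the background test on 3 or more liver or fat arrays; of each other list up to 4 genes, those with the smallest p in skin, were named. Other names were chosen after their values were seen. Marker lists for adipocytes, hepatocytes, endothelium, macrophages and epididymis were read too and are given in the closing section. RefSeq promoters (GRCm38.p6) were matched by symbol. The scanner file labelled fat WT 2 was not used in any fit.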

Additional observations from a re-analysis of the deposited data

Results flagged for a closer look

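Among the groups of 4 KO arrays, 39 member values were checked for an array far from the other 3, in skin and in fat. Of these, 6 stood apart, where about 1 independent group in 20 does so by chance. The members are neighbouring genes measured on the same arrays. Their flags are therefore not independent, and their number cannot be set against that share. On skin KO 1 they were Lce1e at 6.55 (other KO arrays 4.17 to 4.34), Lce1f at 6.95 (5.09 to 5.26), Lce1h at 4.001 (2.25 to 2.40), Lce1i at 6.45 (5.34 to 5.46) and Hrnr at 5.36 (3.46 to 3.71). On skin KO 4 it was Lce1l at 2.19 (1.68 to 1.76). KO 1 was also one of the dimmest skin arrays, with 38.9% of probes well above background.

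The scanner file labelled fat WT 2, which entered no comparison, carried signal of the complex. In it 25 members were well above background and above every other fat array, with Lor at 9.69 (highest other fat array -3.48) and Crct1 at 9.20 (-5.25). Its table column did not show these levels.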

How the results depend on the processing

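No member was called in any tissue under any alternative run, except Sprr2f in skin in 1 fit over all tissues (adjusted p 0.0162, limma), where the count of members called was 1. Subfamily medians in skin kept their sign in all 17 alternatives, except that of Lor, Ivl and Crct1. The counts of all genes called moved more. In skin, 2 genes became 0 with quantile normalization, 0 with no filter on dim probes, 130 in 1 fit over all tissues, 1 with slide as a random block, 1 with the value table, 0 without KO 1 and WT 1 together, and 0 to 43 when 1 array was left out. In liver, 3 became 11 with normexp, 1 with no filter, 20 in 1 fit, 5 with the value table and 0 to 28 when 1 array was left out. In fat, 2 became 4 with no filter, 54 in 1 fit, 1 with the value table, 0 with slide as a fixed block, 0 with the scanner file of fat WT 2 as deposited, and 1 to 13 when 1 array was left out. The median over members in fat, -0.06, was -1.97 with that scanner file and between -0.18 and 0.32 when 1 array was left out. The cause of these shifts was not tested. Slide as a random block could not be fitted in liver, where 1 slide alone holds more than 1 array. In skin and in liver no slide held both genotypes of the tissue, so a slide block could not separate slide from genotype.

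Replicate numbers did not pair the arrays: same-numbered KO and WT arrays had deviations correlated at -0.11 to -0.04 in skin, -0.23 to -0.06 in liver and -0.02 to 0.19 in fat. With the replicate number as a block, 0 genes passed the threshold in any tissue, skin (0), liver (0) or fat (0), and 0 members did.

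The 3 to 4 arrays of a group limit the number of calls, and signals near background, as for most members in liver and fat, carry no order.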

Other observations

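Beside the members, lists of other cell types were read on the same arrays. The skin lists of adipocytes (5 genes), endothelium (4 genes) and macrophages (4 genes) had median KO minus WT differences of -0.53, -0.62 and -0.52, and 0, 0 and 1 of their genes were called. The 1 was Gpnmb, a glycoprotein of lipid-laden macrophages, which was at -2.19, -2.08, -1.32 and -2.53 on KO 1 to 4 and at 1.36, 3.12 and 2.67 on WT 1 to 3 and differed by -4.42 ± 0.44 (SE; limma, adjusted p = 0.0414). In liver and in fat every KO array was likewise below every WT array for Gpnmb, by -5.46 and -4.08, but adjusted p was 0.216 and 0.319 (limma). By this gene the array labelled WT 1 lay with the other WT arrays, whereas by Mapk8 it did not. Hepatocyte genes in skin had a median difference of 0.32 (4 genes tested). In fat the epididymis list, read for the adjacent organ, ranged from -5.98 to -1.01 over the arrays, and 1 of its 5 genes was well above background on no fat array.

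Of the members, Lce1l alone had every KO array above every WT array in both liver and fat by the scanner values, while its skin difference was -0.73. Of all genes tested, 4.8% did so in liver and 6.63% in fat, and the share in both was not counted. In fat Lce1l was well above background on 2 KO and 0 WT arrays, and its genotypes overlapped in the deposited fat values.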
